A study of Mus musculus with 12 samples.

Results

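Neutrophils from Rab27a knockout mice were compared with wild-type neutrophils that had received no CpG, to describe what loss of Rab27a goes with before any stimulus. The comparison used 6 of the 12 libraries of the series. Knockout cells (genotype Rab27aKO, label KO_Ctrl, libraries 1, 2 and 3) and wild-type cells (label WT_Ctrl, libraries 1, 2 and 3) both came from C57BL/6 bone marrow, were selected as Ly6G+ mature neutrophils with magnetic beads, and stood for 6 h at 37C in medium without CpG. The other 6 libraries are the same 2 genotypes after 6 h with 5 µM CpG-B (ODN 1826), an unmethylated DNA ligand of the receptor TLR9. They served here as a second set in which each knockout effect could be looked up. The deleted part of Rab27a, the origin of the knockout line, the sex and number of the mice and whether the genotypes were littermates are details that the sources used here do not give. Nothing in the labels says that libraries of a group came from separate mice, and p-values therefore reflect library-to-library spread, which may be technical.

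Rab27a is a small GTPase that, in its GTP-bound form, tethers secretory organelles to the cell cortex through effector proteins such as the synaptotagmin-like family and Munc13-4, the product of Unc13d. In neutrophils it takes part in the release of azurophilic (primary) granules and in the movement of endosomes that carry nucleic acid receptors. Its loss causes pigment dilution and defective killing by lymphocytes in mice and humans.

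Estimated counts per library ranged over 10928813 to 11464054 in the knockout and 11444586 to 13075096 in the wild type, and 10802 genes were tested. Levels are given as CPM, counts scaled to a common library size, and a gene was called when its adjusted p was at most 0.05 in the edgeR quasi-likelihood test with Benjamini-Hochberg adjustment. Neutrophil markers were present in every library. Ly6g, the gene of the selected surface antigen, stood at 173, 169 and 137 CPM in the knockout libraries and at 188, 155 and 183 CPM in the wild-type libraries. None of 17 mature neutrophil markers and none of 16 precursor markers was called. Over all tested genes 4.75% were called, the share to set beside the calls of any list, and short lists can hold none. Some precursor genes varied widely between knockout libraries. Mpo stood at 17.4, 68.9 and 223 CPM in the knockout and at 90.4, 99.2 and 123 CPM in the wild type. Chil3 varied less, at 2270, 2480 and 2490 CPM in the knockout and 2290, 3440 and 2090 CPM in the wild type.

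Rab27a transcript was lower in the knockout but still present. It stood at 129, 116 and 94.9 CPM in knockout libraries 1, 2 and 3, against 231, 251 and 335 CPM in wild-type libraries 1, 2 and 3. All 3 knockout values were below all 3 wild-type values. The log2 fold change was -1.26 (SE 0.17, adjusted p = 0.000365), a wild-type level 2.40 times the knockout level, and the call held in each of the 12 fits that left out 1 library. With gene-level counts, transcript that lacks part of the gene is counted together with intact transcript.

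Of 21 tested genes of the Rab27 effector and exocytosis list, 3 were called, against 4.75% of all tested genes. Besides Rab27a these were Madd, which activates Rab3 and Rab27 proteins as an exchange factor, and Snap23, a SNARE of regulated exocytosis. Madd stood at 171, 190 and 157 CPM in the knockout and at 122, 123 and 126 CPM in the wild type (log2 fold change 0.48, SE 0.11, adjusted p = 0.0245). Snap23 stood at 656, 587 and 494 CPM in the knockout and at 431, 424 and 367 CPM in the wild type (0.51, SE 0.13, adjusted p = 0.0459). Neither pair of groups overlapped, but both calls depended on single libraries. The Madd call was lost without wild-type library 1 or 3 or knockout library 1 or 2 (adjusted p 0.0693, 0.0538, 0.0802 and 0.145). The Snap23 call was lost without wild-type library 1, 2 or 3, knockout library 1 or 2, or wild-type CpG library 1 (0.0754, 0.0571, 0.144, 0.216, 0.157 and 0.0622).

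Neither Unc13d nor any synaptotagmin-like effector on the list was called. Sytl1, a synaptotagmin-like effector, averaged 6.73 ± 0.658 CPM in the knockout and 12 ± 2.9 CPM in the wild type (SD, n = 3 each), with a log2 fold change of -0.84 and an adjusted p of 0.128. In a fit of only the 6 unstimulated libraries its adjusted p was 0.0495. Unc13d stood at 181, 169 and 138 CPM in the knockout and at 171, 164 and 202 CPM in the wild type (-0.14, adjusted p = 0.764). Rab27b, the closest relative of Rab27a, had too few counts to be tested. No gene of the primary granule list (15 tested), of the secondary and tertiary granule list (23) or of the S100 and stefin list (14) was called. With 4.75% called over all tested genes, lists this short can hold no call. Mmp9, a gelatinase of tertiary granules, stood at 3900, 3430 and 2650 CPM in the knockout and at 4390, 3260 and 4920 CPM in the wild type, with overlapping groups.

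Across all 10802 genes, 513 were called (4.75%), of which 228 were higher (2.11%) and 285 lower (2.64%) in the knockout. Of these, 268 were called and at least 2-fold apart (2.48%). The groups did not overlap for any of the 513, but they also did not overlap for 2700 of all tested genes (25%). The calls were sorted by 4 properties that can set a gene apart from a cell-wide change. Within 100 tested genes of Rab27a in gene order lay 18 of them. A further property, being one of at least 3 called genes with no more than 3 tested genes between neighbours, was shared by 220 and is called a run below. A near-identical match, at least 90% nucleotide identity over at least 80% of the transcript to another gene in the files, was found for 22. Markers of another marrow cell type numbered 6. These sets overlap, for example in 10 genes both near Rab27a and in a run and 14 both in a run and near-identical, so that 240 genes had at least 1 of the properties. In the remaining 273 (156 higher, 117 lower) none was found. Of these, 13 had no position in the annotation used, so nearness to Rab27a and runs could not be checked for them. A transcript sequence to search for a match was available for 488 of the 513.

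**Figure D1:**
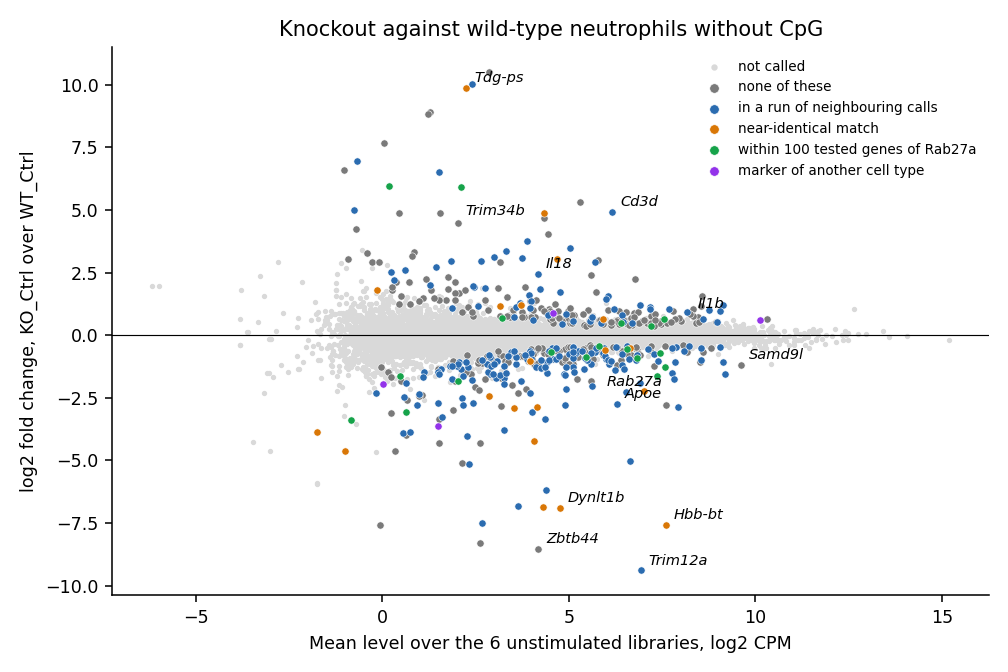
Each point is a tested gene, with its mean level over the 6 unstimulated libraries in log2 CPM on the x axis and its log2 fold change of KO_Ctrl over WT_Ctrl on the y axis. Coloured points are the 513 called genes by property (a gene with several is drawn by the first of near Rab27a, near-identical, run, marker), and the furthest from 0 include Trim12a, Zbtb44, Hbb-bt and Dynlt1b below and Tdg-ps, Cd3d and Trim34b above.

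The calls were spread unevenly over the chromosomes. On chromosome 7, 93 of 836 tested genes were called (11.1%), 75 of them lower. On chromosome 9, which carries Rab27a, 62 of 596 were called (10.4%), and on chromosome 12, 30 of 369 (8.13%). On chromosome X, 2 of 320 were called (0.625%), on chromosome 17, 6 of 586 (1.02%), and on chromosome 18, 3 of 243 (1.23%). Chromosome 2 had more tested genes than chromosome 7, 839, and 19 calls (2.26%). The 51 runs lay on 11 chromosomes, and the 220 genes in them were more often lower (158) than higher (62), with a median absolute log2 fold change of 1.23 against 0.85 for the remaining 273. The chromosomes with no run held 4810 tested genes and 93 calls, of which 60 were higher and 33 lower.

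**Figure D2:**
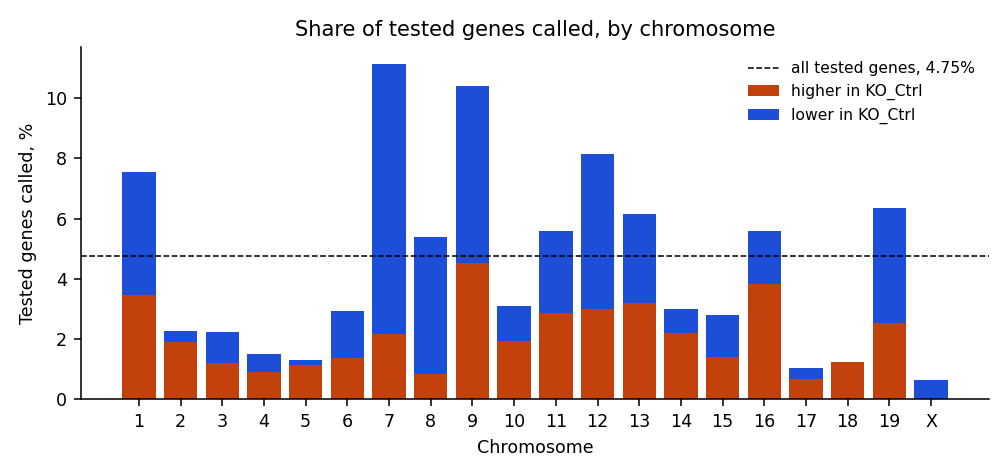
Bars give the share of tested genes called on each chromosome in percent, split into higher and lower in KO_Ctrl, and the dashed line is the 4.75% of all tested genes. Chromosomes 7, 9 and 12 stand highest (11.1%, 10.4% and 8.13%), and the bar of chromosome 7 is mostly genes lower in KO_Ctrl. Chromosome Y, with 4 tested genes, is left out.

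On chromosome 9 calls stood near Rab27a and far from it. Of the 21 tested genes made up of Rab27a and 10 on each side, 3 were called (14.3%), of the 201 in the wider window 18 (8.96%), and of the whole chromosome 62 of 596 (10.4%). Without Rab27a itself these were 2 of 20 (10%), 17 of 200 (8.5%) and 61 of 595 (10.3%). The called neighbours within 10 genes were Rfx7, a transcription factor gene 7 places before Rab27a, and Tmod3, which encodes an actin-capping tropomodulin, 9 places after it. Tmod3 stood at 80.7, 84.5 and 73.0 CPM in the knockout and at 140, 151 and 155 CPM in the wild type (log2 fold change -0.90, SE 0.10, adjusted p = 8.16e-05). Rfx7 stood at 53.3, 45.2 and 45.1 CPM in the knockout and at 68.8, 61.3 and 64.8 CPM in the wild type, and its call (-0.44, adjusted p = 0.0259) was lost without wild-type library 1 or 3, wild-type CpG library 1 or knockout library 2 or 3 (adjusted p 0.0514 to 0.139). Further out, Ddx43, a helicase gene 15 places after Rab27a, had 75 counts over the knockout libraries and 1 over the wild-type libraries, a ratio of 83.6 (95% interval 14.6 to 3350, counting error only).

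A run of 7 called genes began 82 places after Rab27a, at the edge of the window. It held Acpp, the acid phosphatase gene, at 83.6, 81.1 and 76.5 CPM in the knockout and 248, 248 and 257 CPM in the wild type (log2 fold change -1.64, SE 0.10, adjusted p = 3.74e-07). The same run held Col6a4, a collagen VI gene, with the opposite direction, at 13.4, 6.68 and 5.36 CPM in the knockout and 0.0853, 0.220 and 0.0802 CPM in the wild type (5.90, SE 0.62, adjusted p = 4.42e-05). Both calls held in all 12 fits without 1 library, and neither gene's groups overlapped.

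**Figure D3:**
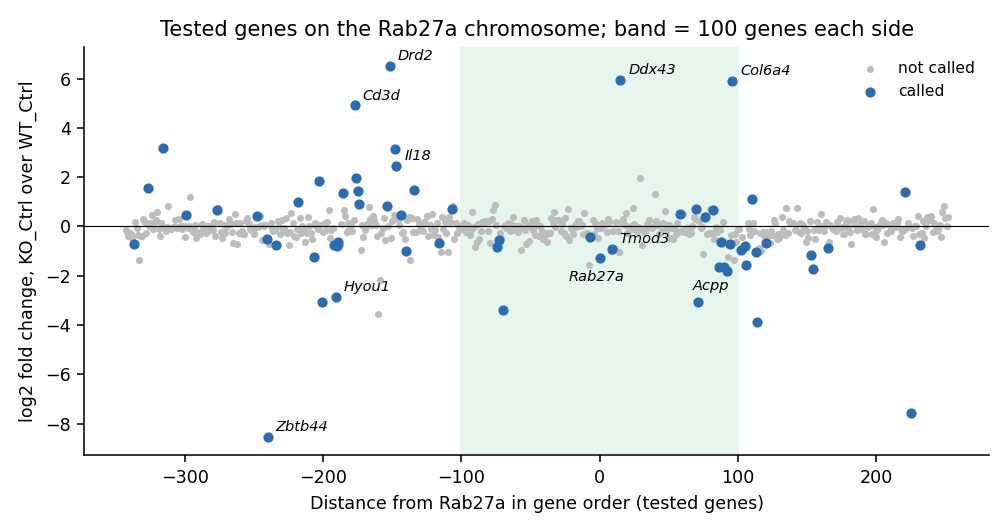
Each point is 1 of the 596 tested genes of the Rab27a chromosome, placed by its distance from Rab27a in tested genes (x axis) and its log2 fold change of KO_Ctrl over WT_Ctrl (y axis), with called genes in blue and the 100 genes on each side shaded. Called genes stand across the whole chromosome, and Drd2, Cd3d and Il18 lie close to each other outside the band.

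Il18, the cytokine with the largest call, lay in a run on chromosome 9, 147 places before Rab27a. It stood at 34.1, 34.8 and 22.9 CPM in the knockout and at 6.65, 4.55 and 5.61 CPM in the wild type. The lowest knockout value was thus above the highest wild-type value (log2 fold change 2.45, SE 0.27, adjusted p = 6.85e-05), and the call held in all 12 fits without 1 library. Its run also held Bco2, a carotenoid-cleaving enzyme, at 14.7, 17.3 and 11.2 CPM in the knockout and 1.71, 1.10 and 2.08 CPM in the wild type, and Drd2, a dopamine receptor gene with 194 counts in the knockout and 2 in the wild type. Usp28 (log2 fold change 0.81) and Nkapd1 (0.45) were higher in the knockout and Alg9 (-1.0) lower. Alg9 was lost without wild-type library 3 or knockout library 1 or 2 (adjusted p 0.05 to 0.069), and Nkapd1 without wild-type library 2 or 3 or knockout library 1 or 2 (0.0543 to 0.142). Il18 is therefore a member both of the cytokine list and of a stretch of neighbouring calls, and the part of position in its change was not tested.

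Cd3d, a chain of the T cell receptor complex, was called higher together with its direct neighbours Mpzl2, Mpzl3 and Jaml, 4 called genes with no other tested gene between them. Mpzl2 was lost without knockout library 2 (adjusted p = 0.061). Cd3d stood at 144, 153 and 119 CPM in the knockout and at 4.01, 6.53 and 3.21 CPM in the wild type (log2 fold change 4.91, SE 0.30, adjusted p = 3.74e-07). The other CD3 chains did not follow it to that level. Cd3e was at 0 to 0.0879 CPM in the knockout and 0 to 0.256 CPM in the wild type, and Cd3g at 0.586 to 1.23 CPM in the knockout and 0 to 0.0734 CPM in the wild type. The summed level of the 23 other T and NK cell markers was 7.27, 11.7 and 24.6 CPM in the knockout and 14.6, 21.2 and 14.1 CPM in the wild type, with overlapping groups. Jaml, a junctional adhesion molecule of neutrophils, stood at 419, 410 and 289 CPM in the knockout and at 183, 252 and 156 CPM in the wild type, and its call (0.92, adjusted p = 0.0412) was lost without wild-type library 1 or 3, wild-type CpG library 1 or knockout library 1 or 2 (adjusted p 0.0532 to 0.160).

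Chromosome 7 held the longest run, 10 called genes between Stim1 and Smpd1 (a call lost without wild-type library 1 or 3, wild-type CpG library 1 or knockout library 1 or 2, adjusted p 0.0611 to 0.165), which takes in the beta-globin genes and a cluster of Trim genes. TRIM5 proteins and their relatives are antiviral ubiquitin ligases, several of them induced by interferon. Trim12a stood at 0, 0.615 and 0.419 CPM in the knockout and at 264, 191 and 277 CPM in the wild type, a wild-type level 672 times the knockout level (adjusted p = 7.75e-09). Trim30b stood at 0.756, 0.703 and 0.251 CPM in the knockout and at 47.6, 33.3 and 43.0 CPM in the wild type, and Trim30d at 0.378, 0 and 0.251 CPM in the knockout and at 25.3, 14.3 and 34.6 CPM in the wild type. These genes were close to absent in every knockout library and present in every wild-type library.

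In the same run Trim34b went the other way, at 45.7, 40.2 and 30.6 CPM in the knockout and 1.71, 1.62 and 0.561 CPM in the wild type (log2 fold change 4.89, SE 0.33, adjusted p = 1.01e-06). Its best match was Trim34a, and the pair is shown because 98.8% of the 1458 bases of their open reading frames are the same. A stretch with 4 differences, bases 93 to 152 of the reading frame in GENCODE M21 transcripts of GRCm38, both genes on chromosome 7, reads as follows 5′ to 3′ with the differing bases in capitals.
Trim34b: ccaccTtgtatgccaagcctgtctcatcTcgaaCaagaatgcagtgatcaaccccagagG
Trim34a: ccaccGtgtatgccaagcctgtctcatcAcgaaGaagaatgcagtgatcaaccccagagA
Summed over both genes, the level was 67.0, 57.5 and 45 CPM in the knockout and 34, 25.2 and 45.6 CPM in the wild type. The sums of the 2 groups overlapped, although the values of Trim34b alone did not.

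Dynlt1b and Dynlt1c, light chains of the motor dynein on chromosome 17, gave the most similar pair printed here, with 99.7% of 342 reading frame bases the same. Bases 1 to 60 of the reading frame hold 1 difference, in capitals.
Dynlt1b: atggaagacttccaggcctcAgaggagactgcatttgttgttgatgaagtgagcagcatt
Dynlt1c: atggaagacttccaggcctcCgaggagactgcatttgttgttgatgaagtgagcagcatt
Dynlt1b stood at 0.472, 0.527 and 0.335 CPM in the knockout and at 57.5, 47.1 and 55.7 CPM in the wild type (log2 fold change -6.88, SE 0.34, adjusted p = 4.60e-08). Here the pair sum did not overlap either, at 80.6, 64.0 and 64.8 CPM in the knockout and 116, 105 and 115 CPM in the wild type.

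Near-identical pairs did not all follow these 2 patterns. Of 18 called genes whose pair was summed, 12 pair sums did not overlap between the groups. Each sum contains a called gene, and no called gene overlapped between the groups. The 25% of all tested single genes that did not overlap is therefore no baseline for these sums. In some pairs, such as Gm15448 with Pira2, both genes were called. The 6 that overlapped were Trim34b, Gvin1, Tdg-ps, Trim5, Raet1d and Hbb-bt, each with its match. H2ac24 was called lower (log2 fold change -2.92), but its sum with H2ac23 was higher in the knockout. That sum was 79, 86.5 and 115 CPM in the knockout and 60.4, 72.6 and 40.6 CPM in the wild type. Fam177a and H2bc23 had the same levels as their matches (100% identity), so those sums only double 1 value. The Raet1d call itself was lost without any of the 3 wild-type libraries, knockout library 2 or 3 or wild-type CpG library 1 (adjusted p 0.0509 to 0.153). Tdg-ps, a copy of the DNA repair gene Tdg, had 9.73, 11 and 7.96 CPM in the knockout and 0 in all 3 wild-type libraries, at least 40.0-fold higher with a floor of 3 counts per library. Together with Tdg it stood at 56.9, 63.9 and 48.7 CPM in the knockout and 54.3, 59.5 and 58.6 CPM in the wild type. Gvin1, a giant interferon-inducible GTPase, stood at 0, 0.966 and 0 CPM in the knockout and at 31.9, 25.3 and 60 CPM in the wild type, while its match Gm4070 stood at 53.9, 41.7 and 41.0 CPM in the knockout and at 4.27, 2.50 and 10 CPM in the wild type. The level of such a gene alone is uncertain, since reads that match both copies are divided by estimate. Counts that were not whole numbers (more than 0.05 from one) in at least 6 of the 12 libraries are a mark of divided reads. They were found for 18 of the 22 genes with a match and for 3.77% of all tested genes. Of the remaining 273, 23 had them, and 10 of these were genes with no position in the annotation used.

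Another run on chromosome 7 held the paired immunoglobulin-like receptors, inhibitory and activating receptors of myeloid cells. Pirb, the inhibitory one, stood at 338, 310 and 228 CPM in the knockout and at 906, 726 and 955 CPM in the wild type (log2 fold change -1.56, SE 0.20, adjusted p = 0.000250). Pira2, an activating one, stood at 46.9, 54.5 and 36.0 CPM in the knockout and at 232, 159 and 248 CPM in the wild type, and its sum with Pira1 did not overlap either. Rps9, a ribosomal protein gene, Lair1, an inhibitory collagen receptor, Rdh13 and Eps8l1 were lower in the same run. The Lair1 call was lost without wild-type library 1 or 3 or any of the 3 knockout libraries (adjusted p 0.0574 to 0.127). Eps8l1 had 2 counts in the knockout and 476 in the wild type, a ratio of 213 in favour of the wild type (95% interval 58.8 to 1770). Counts of the Pir genes were divided between copies in 10 or 11 of the 12 libraries.

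The lipid carrier genes Apoe and Apoc2 lay in a run of 6 lower genes on chromosome 7. Apoe stood at 10.9, 26.1 and 23.9 CPM in the knockout and at 123, 157 and 124 CPM in the wild type (log2 fold change -2.73, SE 0.26, adjusted p = 2.17e-05), and Apoc2 at 0.283, 0.615 and 0.754 CPM in the knockout and at 9.13, 11 and 7.37 CPM in the wild type. Relb, an NF-kB subunit in that run, stood at 20.9, 21.1 and 20.9 CPM in the knockout and at 29.3, 29.1 and 31.3 CPM in the wild type. The Relb call (-0.51, adjusted p = 0.0389) was lost without any one of the 6 unstimulated libraries or of wild-type CpG libraries 1 and 3 (adjusted p 0.0518 to 0.141).

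Of 35 tested ribosomal protein genes, 3 were called, all lower (against 2.64% called lower over all tested genes): Rps3, Rps9 and Rplp1. Each of the 3 lay in a run, Rps3 and Rps9 on chromosome 7 and Rplp1 on chromosome 9 within 100 genes of Rab27a. Rps3 stood at 131, 151 and 164 CPM in the knockout and at 327, 354 and 254 CPM in the wild type (log2 fold change -1.07, SE 0.13, adjusted p = 0.000169). The median of the list was -0.09, against -0.01 over all tested genes. The Rplp1 call (-0.85) was lost without wild-type library 1 or 2 or knockout library 1 or 2 (adjusted p 0.0562 to 0.0752).

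Markers of other marrow cells were examined next, since bead selection can carry them over. Erythroid genes varied most between libraries. The summed level of the 24 erythroid genes was 672, 2180 and 6760 CPM in knockout libraries 1, 2 and 3 and 5740, 5410 and 4420 CPM in wild-type libraries 1, 2 and 3. The knockout values thus spread about both sides of the wild-type values, and 1 of the 24 genes was called. That gene was Hbb-bt, a beta-globin, at 0.850, 0.615 and 4.52 CPM in the knockout and 453, 402 and 308 CPM in the wild type (log2 fold change -7.56, SE 0.64, adjusted p = 7.17e-06). Hbb-bs, its near-identical neighbour, stood at 136, 571 and 1860 CPM in the knockout and 2120, 2040 and 1520 CPM in the wild type (-1.14, adjusted p = 0.512). The alpha-globin Hba-a1 stood at 171, 719 and 2300 CPM in the knockout and 1510, 1420 and 1200 CPM in the wild type, and Hbb-bt was near 0 also in knockout library 3, the library with the most alpha-globin.

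Spic, a transcription factor of red pulp and marrow macrophages, was lower in the knockout at 0.378, 0.264 and 0.586 CPM, against 5.72, 3.16 and 6.89 CPM in the wild type (log2 fold change -3.64, SE 0.58, adjusted p = 0.00161). It was the only one called of 24 monocyte and macrophage markers, but the list's median log2 fold change was -0.43, against -0.01 over all tested genes, and 8 of the 24 estimates were above 0. The complement gene C1qa stood at 2.46, 5.27 and 4.10 CPM in the knockout and at 13.1, 5.43 and 15 CPM in the wild type (-1.49, adjusted p = 0.0956). The complement gene C1qb stood at 3.59, 6.41 and 4.86 CPM in the knockout and at 14, 6.9 and 19.1 CPM in the wild type (-1.42, adjusted p = 0.0876). Mrc1, the macrophage mannose receptor, stood at 2.36, 5.01 and 4.36 CPM in the knockout and at 9.04, 5.73 and 16 CPM in the wild type (-1.38, adjusted p = 0.0919). The groups of these genes did not overlap, nor did those of Lpl (-1.34, adjusted p = 0.107) and Ctss (-0.94, adjusted p = 0.0889). Groups did not overlap for 25% of all tested genes either. Nr4a1 of the same list did not overlap in the other direction, at 15.9, 18.7 and 19.7 CPM in the knockout and 11.4, 11.2 and 9.06 CPM in the wild type. F13a1 overlapped, at 11.5, 22.2 and 76.7 CPM in the knockout and 25.9, 38.1 and 26.2 CPM in the wild type. Over the 23 markers other than Spic the summed level, most of it from Mpeg1 (3300, 3080 and 2440 CPM in the knockout and 3060, 2830 and 1930 CPM in the wild type), was 4130, 3920 and 3370 CPM in the knockout and 4150, 3910 and 3030 CPM in the wild type. In bulk RNA, fewer cells of a type and less RNA per cell cannot be told apart.

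Hdc, which makes histamine, and Ccl3, a chemokine, were called higher and stand on the basophil and mast cell list, although neutrophils express both. Hdc stood at 1260, 1530 and 1260 CPM in the knockout and at 860, 891 and 933 CPM in the wild type (log2 fold change 0.59, SE 0.13, adjusted p = 0.0206), a call lost without wild-type library 1 or knockout library 2 (adjusted p 0.0732 and 0.128). The basophil protease genes Mcpt8 and Prss34 were not called (log2 fold changes -0.36 and -0.07). The other 9 genes of that list summed to 10.6, 17 and 51.7 CPM in the knockout and 23.8, 38.6 and 21.1 CPM in the wild type. Pf4, a platelet chemokine, was called lower (-1.96, adjusted p = 0.0421) at 0.189 to 0.703 CPM in the knockout and 0.938 to 2.32 CPM in the wild type. That call was lost without wild-type library 2 or 3, knockout library 1 or 3, any of the 3 wild-type CpG libraries or knockout CpG library 2 (adjusted p 0.0504 to 0.192). None of 18 B lineage genes was called.

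Among the remaining 273 genes the largest differences were again close to all or none. Hal, histidine ammonia-lyase, stood at 67.2, 69.8 and 93.3 CPM in the knockout and at 2.90, 1.40 and 1.44 CPM in the wild type (log2 fold change 5.34, SE 0.34, adjusted p = 5.38e-07). Cdk5rap1, an enzyme that modifies mitochondrial tRNA, stood at 41.9, 41.3 and 39.6 CPM in the knockout and at 1.96, 2.35 and 3.05 CPM in the wild type. In the other direction, Zbtb44, a zinc finger gene on chromosome 9 that lay 240 places before Rab27a, had 3 counts over the knockout libraries and 1371 over the wild-type libraries, a ratio of 410 in favour of the wild type (95% interval 140 to 1990).

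Cell surface genes of neutrophils were among the remaining calls. C5ar2, a second receptor for the complement fragment C5a, stood at 23.9, 20.5 and 19.9 CPM in the knockout and at 76.0, 80.7 and 69.8 CPM in the wild type (log2 fold change -1.82, SE 0.17, adjusted p = 1.48e-05). Tarm1, an activating receptor of granulocytes, stood at 21.4, 16 and 13.8 CPM in the knockout and at 58.4, 43.2 and 71.1 CPM in the wild type (-1.75, SE 0.21, adjusted p = 0.000112). Met, the receptor for hepatocyte growth factor, stood at 12.1, 20.3 and 15.2 CPM in the knockout and at 1.79, 2.35 and 2.00 CPM in the wild type (2.94, SE 0.27, adjusted p = 1.48e-05). Il1rap, the shared chain of the IL-1 receptor family, was modestly higher, at 40.7, 40.1 and 36.9 CPM in the knockout and 26.8, 24.3 and 21.7 CPM in the wild type (0.69, SE 0.13, adjusted p = 0.00541). All 4 calls held in the 12 fits without 1 library.

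Further remaining genes with large differences included a membrane protein, a transporter and regulators. Anxa6, a calcium-dependent membrane binding annexin, averaged 98.6 ± 30.6 CPM in the knockout and 12.4 ± 3.88 CPM in the wild type (SD, n = 3 each), and the peptide transporter gene Slc15a2 averaged 180 ± 23.7 CPM in the knockout and 37.7 ± 16.8 CPM in the wild type. Nlrp1b, an inflammasome sensor, averaged 22.7 ± 5.67 CPM in the knockout and 5.90 ± 1.39 CPM in the wild type. Sgsm2, a regulator of Rab GTPases, averaged 0.587 ± 0.115 CPM in the knockout and 11.8 ± 2.21 CPM in the wild type, and Trim16, a ubiquitin ligase of the stress response, averaged 2.24 ± 0.057 CPM in the knockout and 16 ± 0.931 CPM in the wild type. None of these groups overlapped, and their adjusted p ran from 1.29e-06 (Trim16) to 0.000365 (Slc15a2).

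Cytokine genes that passed the test were all higher in the knockout. Of 27 tested cytokine genes, 4 were called and all 4 were higher (against 2.11% called higher over all tested genes): Il18, Csf1, Il1b and Il12a. The list's median log2 fold change was 0.27, against -0.01 over all tested genes, and 19 of the 27 estimates were above 0, against 5218 of all 10802. Il12a, a subunit of IL-12, stood at 1.76 to 2.09 CPM in the knockout and 0.683 to 0.955 CPM in the wild type, and was lost without any one of the 6 unstimulated libraries (adjusted p 0.0602 to 0.136). Il1b, the precursor of IL-1 beta, stood at 408, 419 and 341 CPM in the knockout and at 245, 255 and 148 CPM in the wild type. The groups did not overlap (0.85, SE 0.20, adjusted p = 0.0253), but the call was lost without wild-type library 3, which held the lowest value (adjusted p = 0.0725), knockout library 1 (0.0899) or knockout library 2 (0.113). Csf1, the macrophage growth factor, stood at 227, 192 and 190 CPM in the knockout and at 106, 136 and 99.4 CPM in the wild type (0.84, adjusted p = 0.0249), and its call was lost without wild-type library 1 or 3 or knockout library 1 or 2 (0.105, 0.107, 0.106 and 0.0701). Tnf did not pass, at 15.1, 17.5 and 16.1 CPM in the knockout and 18.3, 19.2 and 22.1 CPM in the wild type (-0.29, adjusted p = 0.220).

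Of 23 tested chemokine and chemokine receptor genes, Ccl3 was called higher and Cxcr4 lower, against 4.75% called over all tested genes. Ccl3 stood at 30.5, 33.5 and 29.6 CPM in the knockout and at 20.2, 16.7 and 13.9 CPM in the wild type (log2 fold change 0.88, SE 0.18, adjusted p = 0.0125), a call lost without wild-type library 3 or knockout library 2 (0.0619 and 0.0644). Cxcr4, the receptor that holds neutrophils in the marrow, stood at 393, 372 and 359 CPM in the knockout and at 492, 527 and 568 CPM in the wild type (-0.50, adjusted p = 0.0239). The Cxcr4 call was lost without wild-type library 2 or 3, wild-type CpG library 1 or any of the 3 knockout libraries (0.0544 to 0.109). Cxcl2, a neutrophil attractant, stood at 27.5, 39.4 and 27.9 CPM in the knockout and 24.9, 21.1 and 19.2 CPM in the wild type. Its adjusted p was 0.0624 here, 0.0476 with a filter of 1 CPM in 3 libraries and 0.0180 in DESeq2.

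Immediate early genes, which cells switch on within minutes of a signal, gave the most calls of any list in 1 direction. Of 30 tested, 5 were called, all higher, against 2.11% called higher over all tested genes. In the list 24 of 30 estimates were above 0, against 5218 of all 10802, and its median was 0.26, against -0.01. Dusp1, a phosphatase that turns off MAP kinases, stood at 121, 126 and 114 CPM in the knockout and at 70.8, 73.8 and 47.0 CPM in the wild type (log2 fold change 0.91, SE 0.16, adjusted p = 0.00350). Jund, an AP-1 subunit, stood at 55.9, 63.6 and 64.5 CPM in the knockout and at 34.7, 42.9 and 32.9 CPM in the wild type (0.73, SE 0.14, adjusted p = 0.00651). Both held in all 12 fits without 1 library, although Jund lay in a run on chromosome 8. The other 3 depended on single libraries. Dusp5 (0.97) was lost without wild-type library 3 or knockout library 2 (0.0546 and 0.0576). Nr4a3 (1.84) was lost without any one of the 6 unstimulated libraries (0.0507 to 0.154). Atf3 (0.66) was lost without wild-type library 1 or 3, any of the 3 knockout libraries, wild-type CpG library 1 or knockout CpG library 2 (0.0512 to 0.167).

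The 250 bases before the start of Dusp1 are shown because Dusp1 was the called immediate early gene with the smallest p. They read as follows 5′ to 3′ from RefSeq, chr17:26508473-26508722 of GRCm38.p6, minus strand, with motif matches in capitals.
Dusp1: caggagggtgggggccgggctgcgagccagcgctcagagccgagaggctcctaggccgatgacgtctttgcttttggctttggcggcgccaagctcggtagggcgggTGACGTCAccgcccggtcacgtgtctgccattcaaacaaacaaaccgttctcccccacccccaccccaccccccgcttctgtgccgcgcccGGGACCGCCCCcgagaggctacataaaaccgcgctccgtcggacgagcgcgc
The first match is the cyclic AMP response element TGACGTCA and the second holds overlapping matches to an NF-kB pattern of 3 G, any 5 bases and 2 C. Both strands were searched in all such windows for these patterns and for the AP-1 pattern TGANTCA. Among the 10 called genes that were higher in the cytokine, chemokine and immediate early lists, the response element stood before Dusp1 alone, the NF-kB pattern before 5 (Atf3, Csf1, Dusp1, Dusp5 and Il12a) and the AP-1 pattern before none. Over all 32851 windows the shares were 1.55%, 45.8% and 6.75%. A match is a description of the letters and shows no binding.

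**Figure D4:**
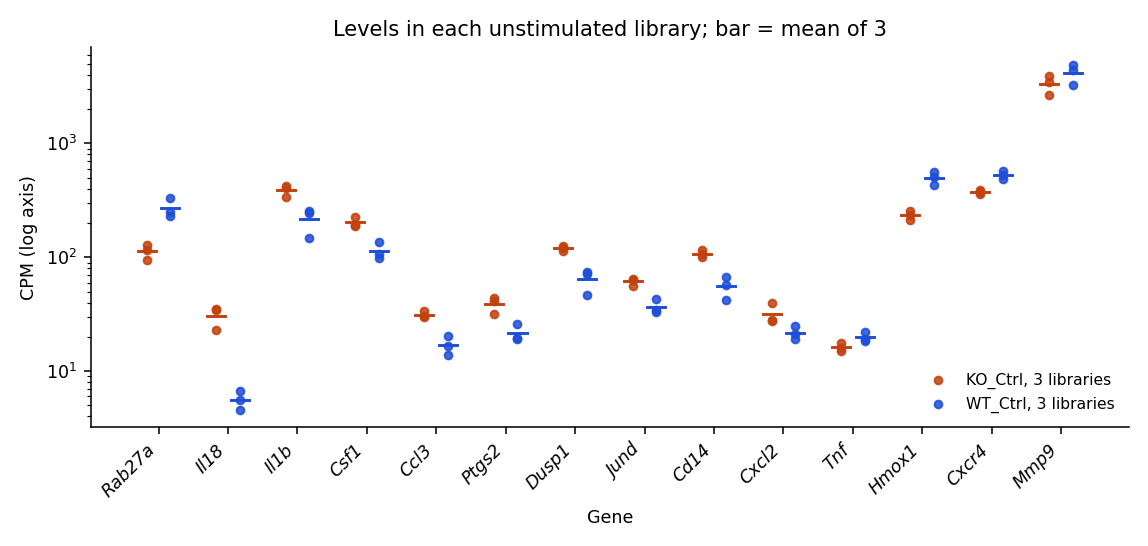
Points are CPM of each unstimulated library on a log axis for 14 genes, KO_Ctrl to the left of WT_Ctrl, and bars are means of 3 libraries. Il18, Il1b, Csf1, Ccl3, Ptgs2, Dusp1, Jund and Cd14 are higher and Rab27a, Hmox1 and Cxcr4 lower in KO_Ctrl with no overlap. Cxcl2 and Tnf do not overlap but were not called, and Mmp9 overlaps.

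Of 50 tested pattern recognition and surface receptor genes, Il1rap, Cd14, Clec4n and Clec7a were called higher and Pirb and Nlrp3 lower. The share called over all tested genes was 4.75%. The fungal receptor genes Clec4n (0.96) and Clec7a (0.54) were each lost without wild-type library 1 or 3, wild-type CpG library 1 or knockout library 1 or 2, Clec4n also without knockout CpG library 2, and Clec7a also without wild-type library 2 or wild-type CpG library 2 (adjusted p 0.0512 to 0.204). Cd14, the co-receptor for bacterial lipopolysaccharide, stood at 101, 116 and 106 CPM in the knockout and at 67.7, 57.5 and 42.2 CPM in the wild type (log2 fold change 0.95, adjusted p = 0.0206), a call lost without wild-type library 2 or 3 or knockout library 2 (0.0536, 0.0902 and 0.0905). Ptgs2, the inducible cyclooxygenase, stood at 41.2, 43.9 and 31.8 CPM in the knockout and at 19.5, 25.7 and 19.2 CPM in the wild type (0.86, adjusted p = 0.0246). It lay in a run on chromosome 1 with Rgs1 and Rgs2, regulators of G protein signalling, and its call was lost without wild-type library 1 or 3 or knockout library 1 or 2 (0.0907 to 0.122). Rgs1 was lost without wild-type library 2 or 3, any of the 3 knockout libraries or wild-type CpG library 2 (0.0523 to 0.147). Nlrp3, the inflammasome sensor, averaged 74.5 ± 7.06 CPM in the knockout and 117 ± 18.2 CPM in the wild type (-0.65, adjusted p = 0.0354), and its call was lost without wild-type library 1 or 2, wild-type CpG library 1 or any of the 3 knockout libraries (0.0622 to 0.169).

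Of 39 tested genes of TLR9 and nucleic acid sensing, 2 were called (5.13%), near the 4.75% of all tested genes. Slc15a3, a lysosomal transporter of histidine and peptides, was higher (0.63, adjusted p = 0.0362) and Pld3, a lysosomal exonuclease that digests TLR9 ligands, was lower. Pld3 stood at 14.6, 21.4 and 24 CPM in the knockout and at 36.6, 31.4 and 51.0 CPM in the wild type (-0.98, SE 0.20, adjusted p = 0.0113). The Pld3 call was lost without wild-type library 3 or knockout library 1 (0.0651 and 0.0512), and the Slc15a3 call without wild-type library 2 or 3 or knockout library 1 or 2 (0.0756 to 0.161). Tlr9 itself stood at 3.21, 2.11 and 4.02 CPM in the knockout and at 2.90, 4.11 and 3.05 CPM in the wild type, and Unc93b1, its chaperone, at 153, 143 and 133 CPM in the knockout and 150, 155 and 147 CPM in the wild type. The groups of Tlr9 overlapped. Of 53 tested interferon-stimulated genes, 1 was called, Samd9l, which was lower at 575, 461 and 396 CPM in the knockout and 742, 979 and 1560 CPM in the wild type (-1.20, adjusted p = 0.0143). Without wild-type library 3, the highest, its adjusted p was 0.0591, and without knockout library 2 or 3 it was 0.0739 or 0.0619.

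Of 25 tested NADPH oxidase and antioxidant genes, Hmox1, Nqo1 and Gclm were called, all lower, against 2.64% called lower over all tested genes. These 3 are known targets of the oxidative stress factor NRF2. In the list as a whole 22 genes did not pass, and 6 of 25 estimates were above 0 (median -0.23), against 5218 of all 10802 (median -0.01). Hmox1, which breaks down heme, stood at 213, 235 and 256 CPM in the knockout and at 430, 506 and 560 CPM in the wild type (log2 fold change -1.08, SE 0.14, adjusted p = 0.000234). Nqo1, a quinone reductase, stood at 2.74, 2.72 and 2.09 CPM in the knockout and at 8.96, 4.85 and 7.13 CPM in the wild type (-1.47, SE 0.26, adjusted p = 0.00362). Both calls held in all 12 fits without 1 library. Gclm, a subunit of the enzyme that starts glutathione synthesis, averaged 44 ± 4.87 CPM in the knockout and 76.4 ± 1.99 CPM in the wild type (-0.79, adjusted p = 0.0129), and was lost without wild-type library 1 or knockout library 1 or 2 (0.0609, 0.0616 and 0.0767). Levels of markers of other cells are given beside Hmox1. Erythroid RNA summed to 672, 2180 and 6760 CPM in the knockout and 5740, 5410 and 4420 CPM in the wild type, with overlapping groups. The macrophage markers Spic, C1qa, C1qb and Mrc1 were below every wild-type library in all 3 knockout libraries. Other members of that list did not follow, such as Nr4a1, which was above every wild-type library, and F13a1, which overlapped. The part of erythroid and macrophage RNA in the Hmox1 difference was not tested.

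Lists for cell cycle (36 tested genes) and glycolysis and hypoxia (26) held no call. The endolysosomal trafficking list held 2 of 37, both lower: Vps11, a core subunit of the tethering complexes of late endosomes, and Lamtor1, which anchors a signalling complex to lysosomes. Vps11 stood at 64.6, 64.9 and 62.9 CPM in the knockout and at 116, 113 and 92.3 CPM in the wild type (log2 fold change -0.74, SE 0.12, adjusted p = 0.00260) and held in all 12 fits. Both lay in runs, Vps11 on chromosome 9 beside Hyou1, a chaperone of the endoplasmic reticulum that was lower by -2.85, and Lamtor1 on chromosome 7. The Lamtor1 call (-0.56, adjusted p = 0.0139) was lost without knockout library 3 (0.0679). Casp4, an inflammatory caspase on the apoptosis and survival list, was called lower (log2 fold change -0.73, adjusted p = 0.0281), and its call was lost without wild-type library 1 or 3 or any of the 3 knockout libraries (adjusted p 0.088 to 0.14).

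Single calls came from 4 further lists. Cd86, a costimulatory ligand for T cells, was the only call of 28 antigen presentation genes and stood at 36.2, 28.3 and 25.5 CPM in the knockout and at 16.6, 11.2 and 18.4 CPM in the wild type (log2 fold change 0.96, adjusted p = 0.033). It was lost without wild-type library 1 or 2 or knockout library 1 or 2 (0.0734 to 0.157). Ets2, a transcription factor downstream of MAP kinases, was the only call of 23 granulocyte transcription factor genes (0.76, adjusted p = 0.0302), and was lost without wild-type library 1 or 3 or knockout library 1 or 2 (0.0578 to 0.115). Tbxas1, thromboxane synthase, was lower (-1.02, adjusted p = 0.014) on the lipid mediator list of 15, where Ptgs2 was higher, and was lost without wild-type library 1 or 3 or knockout library 3 (0.057 to 0.0766). Zc3h12c, an RNA-binding feedback regulator, was higher (1.47, adjusted p = 0.042) on the NF-kB list of 33, where Relb was lower. The Zc3h12c call was lost without any of the 3 wild-type libraries, knockout library 2 or 3, wild-type CpG library 2 or 3 or knockout CpG library 2 (0.052 to 0.163).

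The CpG libraries gave a second estimate of each genotype difference, from levels the calls had not used, apart from the shared estimate of spread. Of the 513 genes, 503 had an estimate of the same sign between knockout and wild type with CpG. Over all 10802 tested genes, 7667 had the same sign. Of the 513, 292 (56.9%) were called with CpG in the same direction. Those 292 were 69.0% of the 423 called with CpG (3.92% of all tested, 1.7% higher and 2.21% lower). Same-numbered libraries of a genotype deviated together, with residual correlations of 0.62, 0.09 and 0.68 in the knockout and 0.28, 0.41 and 0.44 in the wild type, so the sets may share mice. The share called again was 73.2% among genes in runs, 72.7% among near-identical genes and 66.7% near Rab27a, against 43.2% of the remaining genes. Within the remaining genes it was 33.3% of the 156 higher and 56.4% of the 117 lower. On the chromosomes with no run, 39.8% of the 93 calls were called again. Of the 4810 tested genes there, those 93 included, 1.87% were called with CpG with the same sign as without. Over all chromosomes, the genes called in both in the same direction were 2.7% of all tested genes.

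Of the 63 genes called and at least 8-fold apart without CpG, 59 were called in the same direction with CpG and 47 were again at least 8-fold apart. Rab27a averaged 107 CPM in knockout and 236 CPM in wild-type libraries with CpG (log2 fold change -1.14, adjusted p = 0.00112). Cd3d averaged 109 CPM in the knockout and 3.94 CPM in the wild type, and Trim12a averaged 0.251 CPM in the knockout and 272 CPM in the wild type. Il18 was again higher, at 15.6 CPM in the knockout and 5.52 CPM in the wild type (1.51, adjusted p = 0.00492), and Hmox1 again lower, at 432 CPM in the knockout and 778 CPM in the wild type (-0.85, adjusted p = 0.00202). The called cytokine, immediate early and Ccl3 genes other than Il18 were not called between genotypes with CpG. Their log2 fold changes there were 0.47 for Il1b, 0.31 for Csf1, 0.53 for Il12a, 0.03 for Ccl3, 0.25 for Dusp1, 0.17 for Jund, 0.25 for Dusp5, 0.05 for Atf3 and 0.37 for Nr4a3, each smaller than without CpG. The difference between the 2 genotype effects was tested as an interaction, and no gene passed at an adjusted p of 0.05 in edgeR. At an unadjusted p under 0.05, 365 of all tested genes (3.38%) and 64 of the 513 passed. These 2 counts cannot be compared, since the 513 were chosen by the difference without CpG, which is itself part of the interaction. The same choice favours smaller estimates with CpG than without it among called genes. That these genes respond differently to genotype with and without CpG is therefore not shown.

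**Figure D5:**
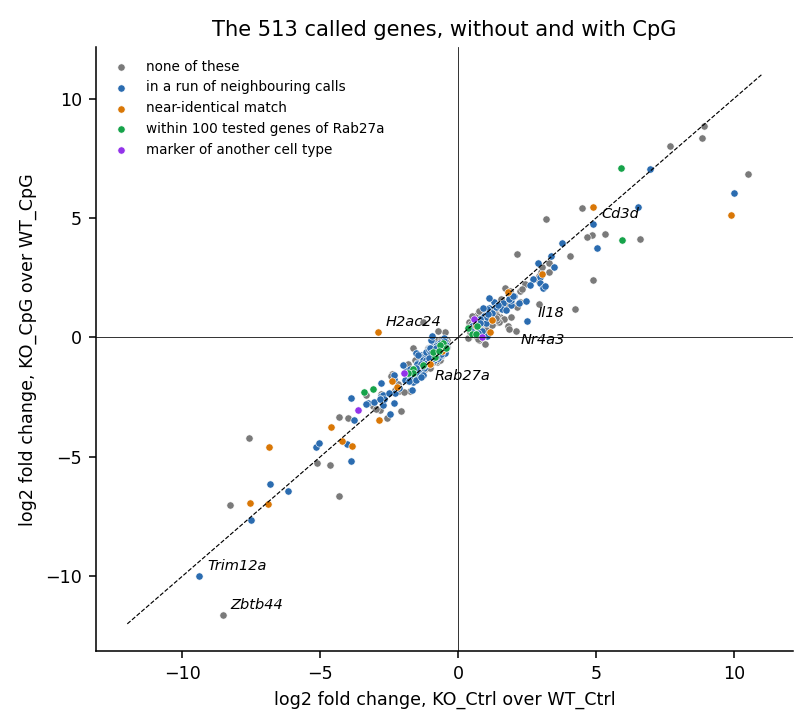
Each point is 1 of the 513 called genes, with its log2 fold change of KO_Ctrl over WT_Ctrl on the x axis and of KO_CpG over WT_CpG on the y axis. The dashed line marks equal values. Colours are as in the plot of fold change by level, and 503 of the points have the same sign on both axes, H2ac24 being an exception (-2.92 without and 0.22 with CpG).

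The calls differed in how well they stood up to leaving out 1 library. Of the 513, 246 (48.0%) were called in all 12 such fits. The share was 64.1% of genes in runs (141 of 220), 63.6% of near-identical genes (14 of 22), 44.4% near Rab27a (8 of 18) and 35.5% of the remaining genes (97 of 273). Among the remaining genes, 50 of the 156 higher (32.1%) and 47 of the 117 lower (40.2%) held throughout. Errfi1, a feedback inhibitor of EGF receptors, and Metrnl, a secreted factor, were remaining genes that held. Errfi1 stood at 25.6, 24.9 and 26.1 CPM in the knockout and at 8.19, 11.9 and 8.34 CPM in the wild type (log2 fold change 1.42, SE 0.17, adjusted p = 0.000106), and Metrnl at 29.2, 27.2 and 21.8 CPM in the knockout and at 11.9, 13.3 and 11.5 CPM in the wild type. They were named after their values were seen. Without knockout library 2, 278 genes were called in all, without knockout library 1, 311, without wild-type library 3, 324, and without wild-type library 1, 328. Without knockout library 3, which held the most erythroid RNA, 492 were called.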

How the data were processed

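PolyA RNA of 12 libraries was sequenced on an Illumina HiSeq instrument, per the labels. Estimated counts per RefSeq transcript, not scaled, were deposited by the authors. RSEM 1.2.28 and Bowtie2, with no version for Bowtie2, are named with the build GRCm39 per the submitters' processing notes. TPM and FPKM values deposited beside them were not used. Estimated counts of 54716 transcripts were summed per gene (15986 genes, 15883 matched to a symbol) and rounded. The 10802 genes that passed filterByExpr (smallest count 10, smallest total 15) were fitted in edgeR 4.0.16 (R 4.3.3; TMM, quasi-likelihood F test, 1 mean per group, all 12 libraries, 8 residual degrees of freedom), with Benjamini-Hochberg adjustment over all of them. The script was tested on simulated data. The common dispersion was 0.0293 (coefficient of variation 17.1%).

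Gene names and order came from RefSeq on GRCm38.p6, so no positions on GRCm39 are given. Near-identical matches were found with blastn 2.17.0 between GENCODE M21 transcripts, in place of the planned protein comparison. The rule for naming genes took Rab27a, 12 remaining genes at each end of fold change with at least 5 CPM, up to 4 per run or list by smallest p, and a set of inflammatory and granule genes. The text gives those its results turn on. Other members of a run, list, marker set or pair were added after their values were seen. Gene groups and lists were chosen with earlier results of these data known. Replicate numbers did not pair knockout with wild-type libraries (same-numbered residual correlations 0.03, -0.05 and -0.13). Some genes are not reported here.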

Additional observations from a re-analysis of the deposited data

How the results depend on the processing

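Rab27a stayed lower and called under every alternative run, with log2 fold changes of -1.37 to -1.08 when 1 library was left out. Counts of calls moved more. DESeq2 1.42.0 called 782 genes (417 higher), with 13 markers and 432 remaining genes, 290 of them higher. A test against a 1.5-fold change called 173 (69 higher, 104 lower), with 46 in runs, 8 near Rab27a, 13 near-identical, 3 markers and 118 remaining (50 higher, 68 lower). With no filter, 9 called genes lay near Rab27a and 12 were markers. A window of 50 or 200 tested genes held 4 or 46 calls. With at most 1 gene between run members, runs held 110 and the remaining lower genes numbered 188. With replicate number as a block, 654 genes were called.

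Leaving out 1 library gave 278 to 604 calls (109 to 290 higher, 169 to 314 lower), 110 to 258 in runs, 8 to 20 near Rab27a, 14 to 25 near-identical, 4 to 9 markers and 158 to 323 remaining (74 to 200 higher, 84 to 132 lower). The share called again with CpG ran from 42.8% to 78.4%. The cause of these movements was not tested.

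Signs turned only for uncalled genes near 0. Mpo was 0.00 with RLE scaling, 0.05 by library size alone, 0.04 with the 1 CPM filter and 0.02 in the 6 libraries alone, and -1.24 to 0.48 without 1 library. Elane was -0.36 with the replicate block and -0.53 with same-numbered libraries of a genotype as a random block. It was -1.03 to 0.53 without 1 library. Without 1 library Tlr9 ran from -0.31 to 0.11, Unc13d from -0.22 to 0.00 and Unc93b1 from -0.13 to 0.01. At this depth, genes of a few counts per library carry wide intervals, and 3 libraries a group limit what can be called.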
